A study of Mus musculus with 21 samples.

Results

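The liver makes most of the proteins that circulate in plasma, and 32 genes for such proteins, carriers and secreted precursors were followed here in livers of mice whose lungs had received titanium dioxide nanoparticles. They were chosen by name as genes of hepatocyte plasma proteins, and each was represented by the probe with the brightest mean signal in the liver channel among the probes whose accession named that gene. A probe was present for 32 of 32, out of 16535 genes named on the array. Of these, 31 passed the filter on dim probes and were tested among 17624 features, and A2m did not pass. To pass, a probe's liver signal had to be well above background in 50% or more of the mice of some group.

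The mice were female C57BL/6, bought at 5 to 7 weeks of age and kept for 1 to 3 weeks before the start. Each received 1 instillation of 40 µl into the trachea under anaesthesia, either of 162 µg of nano-TiO2 in vehicle or of the vehicle alone, so the controls too had been instilled. The vehicle was saline with 10% cell-free lavage fluid from lungs of untreated mice. Livers were taken 1 or 28 days later, from 5 control and 6 TiO2 mice at day 1 and from 4 control and 6 TiO2 mice at day 28, and the RNA of each mouse was hybridised in red (Cy5) against a reference RNA of 11 mouse cell lines in green (Cy3). The study asked what particles deposited in the lung do to gene expression in the liver. A level below is the log2 ratio of liver to reference RNA for 1 probe, given as mean ± SD over mice, and a difference is between group means of these levels, given ± SE from limma. Such a ratio depends on what the cell lines express, so its order among genes is not an order of abundance.

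Hepatocytes release albumin, carriers for hormones, vitamins, metals and haem, protease inhibitors and hormone precursors into the blood. Interleukin-6 and interleukin-1 reach the liver during inflammation and act through STAT3, C/EBP and NF-kappa B factors, which raises the positive acute phase genes such as Hp, Lbp and Lrg1, while negative acute phase genes such as Alb, Ttr and Rbp4 fall. In the adult liver the basal transcription of this class of genes depends on hepatocyte factors such as HNF1, HNF4 and C/EBP alpha.

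The promoters of the albumin family are shown because these related genes share a motif while their levels lay on both sides of the reference. Alb, Afp, Afm and Gc encode albumin, alpha-fetoprotein, afamin and the vitamin D-binding protein. The 250 bases before the RefSeq start of each gene, in build GRCm38.p6, are given 5′ to 3′ on the strand of the gene, with matches to GTTAATNAT, a core of the HNF1 site searched on both strands, in capitals.
Alb (chr5:90460620-90460869, forward strand): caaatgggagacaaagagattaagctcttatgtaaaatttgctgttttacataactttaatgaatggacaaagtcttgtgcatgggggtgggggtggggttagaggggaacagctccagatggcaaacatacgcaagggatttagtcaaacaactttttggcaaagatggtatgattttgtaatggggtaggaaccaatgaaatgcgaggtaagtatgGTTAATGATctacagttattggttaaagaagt
Afp (chr5:90490464-90490713, forward strand): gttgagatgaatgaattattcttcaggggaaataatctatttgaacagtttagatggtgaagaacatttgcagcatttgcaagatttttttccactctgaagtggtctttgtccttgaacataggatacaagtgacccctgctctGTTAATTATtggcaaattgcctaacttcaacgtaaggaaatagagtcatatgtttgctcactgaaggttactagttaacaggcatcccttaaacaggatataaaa
Afm (chr5:90518699-90518948, forward strand): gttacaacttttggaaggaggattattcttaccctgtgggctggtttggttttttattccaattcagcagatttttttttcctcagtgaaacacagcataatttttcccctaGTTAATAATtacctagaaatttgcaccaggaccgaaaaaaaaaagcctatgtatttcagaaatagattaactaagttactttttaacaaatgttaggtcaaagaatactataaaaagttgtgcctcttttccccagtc
Gc (chr5:89457899-89458148, reverse strand): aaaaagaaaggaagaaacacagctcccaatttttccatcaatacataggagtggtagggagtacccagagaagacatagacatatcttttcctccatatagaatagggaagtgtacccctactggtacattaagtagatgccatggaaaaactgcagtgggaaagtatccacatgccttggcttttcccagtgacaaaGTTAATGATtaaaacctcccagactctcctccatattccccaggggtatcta
Each of these 4 promoters held 1 match, and the first base of the match lay 32 bases before the start in Alb, 105 in Afp, 138 in Afm and 52 in Gc. A window was found for 26 of the 32 members, and Hp, Lbp, A2m, Ttr, Leap2 and Fgl1 were not matched. The motif occurred in 6 of these 26 windows, also in those of Cp and Pzp, which is 23.1%, against 214 of 27025 promoters in the table, which is 0.792%. TATAAA was found in 7 of 26 (26.9%, against 12.9% of all) and the STAT motif TTCNNNGAA in 4 of 26 (15.4%, against 7.11% of all), namely Agt, Hgfac, Itih4 and Steap4. The looser C/EBP motif TTNCNNAA was found in 14 of 26 (53.8%, against 37% of all). For the NF-kappa B motifs GGGANTTCC and GGGACTTTC the count was 0 of 26, against 1.44% and 0.263% of all promoters, and for the HNF4 motifs CAAAGTCCA and CAAAGGTCA it was 0 of 26, against 0.4% and 0.414%. A match of letters is not a bound site, and the array did not measure binding. The shares of different motifs overlap where the same bases match more than 1 of them.

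The arrays carried a liver profile. Of 14 hepatocyte markers outside the member list, 14 were well above background on each of the 21 arrays, with array medians of 5.92 to 7.28. The extraction text in the labels speaks of lung, and of 13 lung markers 3 to 11 were above background per array, with array medians of -0.11 to 0.23. Detection differed by marker, from Cyp2f2 and Sftpd on 21 of 21 arrays, Lamp3 on 20, Napsa on 13, Slc34a2 on 16 and Scgb1a1 on 17 to the surfactant genes Sftpc and Sftpb on 2 each and the alveolar gene Ager on 0. Whether liver cells also express some of these lung markers was not tested. Neutrophil markers were above background for 1 to 5 of 8, with S100a9 on 21 of 21 arrays, Csf3r on 12, S100a8 on 9, and Ngp, Camp and Mmp8 on 0. For the 12 lung markers with a value on every array, the signals were summed and the log2 of the sum was taken. It was 10.09 to 10.48 in control and 10.14 to 10.54 in TiO2 livers at day 1. At day 28 it was 10.12 to 10.25 in control and 10.05 to 10.32 in TiO2 livers. The arrays were scanned on 3 days, each with mice of all 4 groups. Scan day 1 held 1 array of either control group and 2 of either TiO2 group, and scan day 3 held 1 array of day 28 controls and 2 of each other group.

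Against the cell lines, most members were far higher in liver. In control livers at day 1, 27 of the 31 tested members were at least 4-fold above the reference, and the same 27 of 31 was reached when every group mean had to pass. Over all tested features these shares were 6.76% and 6.05%. The median level of the tested members was 5.65 in control livers at day 1, against 0.06 over all tested features. The members below 4-fold were Steap4, Serpinf1, Ecm1 and Afp.

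**Figure D1:**
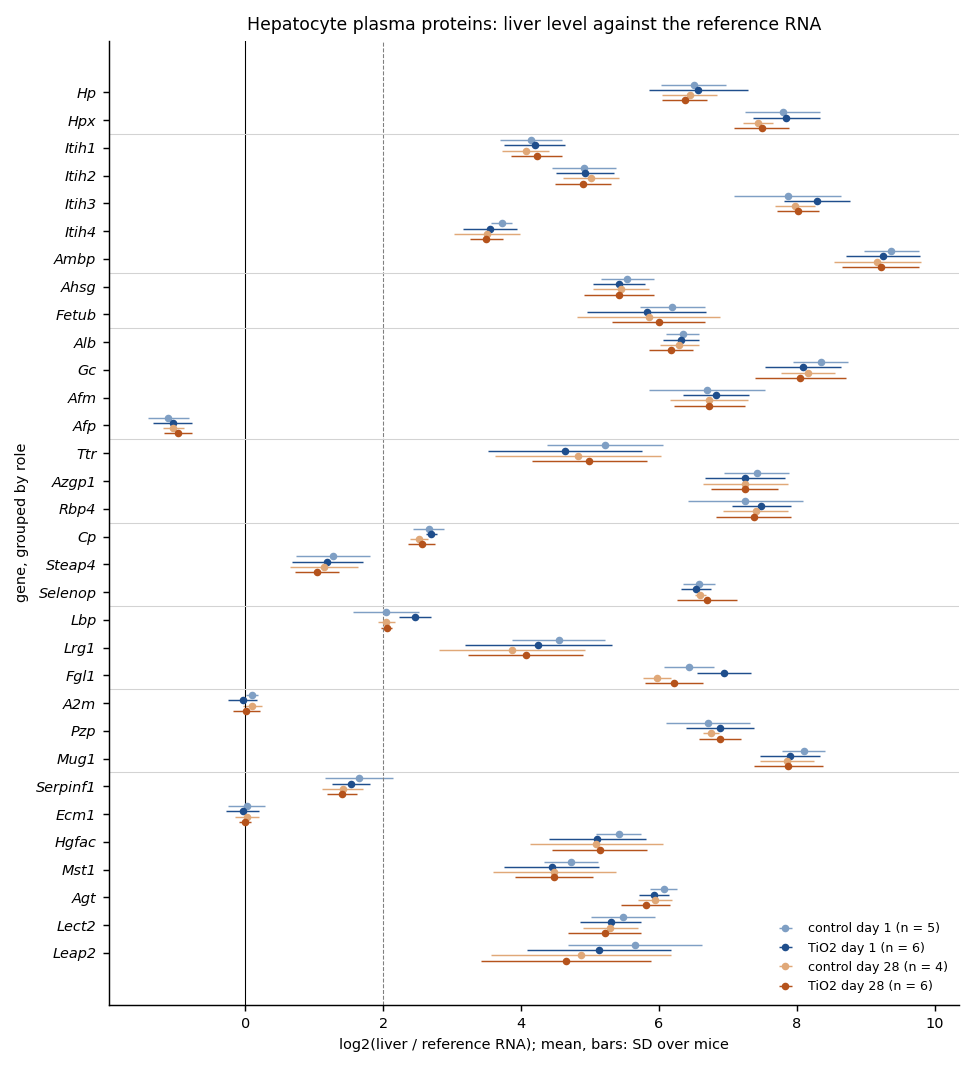
Mean log2 ratio of liver to reference RNA (horizontal axis) of the 32 genes, grouped by role (grey lines), in the 4 groups; bars are SDs over mice, the solid line marks equal levels and the dashed line 4-fold. The 4 group means of a gene lie close together beside the distances between genes, from -1.11 for Afp to 9.37 for Ambp in control livers at day 1; A2m, near 0, was not above background, and Selenop had 3 values in control livers at day 28.

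The haem and haemoglobin scavengers were high in all groups. Hp encodes haptoglobin, which binds free haemoglobin, and stood at 6.51 ± 0.47 (n = 5) in control livers at day 1 and 6.57 ± 0.72 (n = 6) in TiO2 livers. Its values were 5.67, 6.65, 6.69, 6.83 and 6.70 in the day 1 controls, and ran from 5.33 over a median of 6.76 to 7.24 in the TiO2 mice. The groups overlapped, and the low values in either group came from scan day 1. Hpx encodes hemopexin, which binds free haem, and stood at 7.79 ± 0.55 and 7.85 ± 0.49 in these groups, a difference of 0.06 ± 0.25 (95% interval -0.46 to 0.57). At day 28 the TiO2 mice stood at 6.37 ± 0.32 for Hp and 7.49 ± 0.39 for Hpx (n = 6), beside 6.44 ± 0.40 and 7.43 ± 0.21 in controls (n = 4).

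Ambp encodes the precursor of alpha-1-microglobulin and bikunin, the light chain of the inter-alpha-trypsin inhibitors. It had the highest ratio of the members, 9.37 ± 0.40 in control livers at day 1, which is 663-fold over the reference. The heavy chains that bikunin joins, and that are passed on to hyaluronan, lay at 4.14 ± 0.45 for Itih1, 4.91 ± 0.47 for Itih2 and 7.87 ± 0.78 for Itih3. Their relative Itih4, which does not join bikunin, lay at 3.72 ± 0.16. Itih1, Itih3 and Itih4 are neighbours in the RefSeq gene order, and their ratios still differed. Itih4 is known as an acute phase gene. Its TiO2 mice stood at 3.55 ± 0.40 at day 1, a difference of -0.17 ± 0.19.

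In the albumin family Afp varied least within groups, with an SD of 0.25, and Alb had one of 0.28, against a median of 0.44 over the members. The values of Alb in the day 1 controls were 6.67, 6.01, 6.29, 6.32 and 6.44. In the TiO2 mice they ran from 6.08 over a median of 6.26 to 6.73. The groups overlapped over most of their range. The difference was -0.02 ± 0.16 at day 1 (95% interval -0.36 to 0.32) and -0.12 ± 0.18 at day 28 (95% interval -0.48 to 0.24). Gc, which carries vitamin D and actin in plasma, stood at 8.34 ± 0.40 and Afm, a carrier of vitamin E, at 6.70 ± 0.84 in the day 1 controls.

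Afp, the fetal counterpart of albumin and silent in most adult hepatocytes, was the member with the lowest ratio. Its values in the day 1 controls were -0.63, -1.26, -1.44, -1.09 and -1.15, a mean of 0.462-fold of the reference. All groups lay below the reference, with means of -1.06 in TiO2 livers at day 1, -1.04 in control and -0.98 in TiO2 livers at day 28. Its liver signal was above background on 21 of 21 arrays but dim, with raw values of 89.35 to 229.5, beside 66 to 97 for A2m. Its ratio is therefore less certain than those of brighter members. Of the 4 relatives whose promoters hold the HNF1 core, Alb, Afm and Gc stood 81.2-, 104- and 325-fold over the reference in control livers at day 1, and Afp below it.

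Among the carriers of small ligands, Ttr (transthyretin, for thyroid hormone and the retinol-binding protein) stood at 5.22 ± 0.84, Rbp4 (the retinol-binding protein) at 7.25 ± 0.84 and Azgp1 (zinc-alpha-2-glycoprotein) at 7.42 ± 0.47 in the day 1 controls. The fetuin genes Ahsg and Fetub, whose proteins hold calcium phosphate in solution and inhibit an astacin protease, stood at 5.54 ± 0.38 and 6.20 ± 0.47. For Ttr the reference was well above background on 16 of 21 arrays, so part of its ratios rest on a dim reference.

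Selenop, the plasma carrier of selenium, stood at 6.58 ± 0.23 in the day 1 controls and Cp, the copper-binding ferroxidase ceruloplasmin, at 2.66 ± 0.23. Cp had the smallest spread between mice within groups of the members, an SD of 0.17. In the TiO2 mice at day 1 Cp lay between 2.61 and 2.81, inside the range of the controls, 2.45 to 3.02. Steap4, a metalloreductase of the plasma membrane and so no plasma protein itself, was above background in liver on 21 of 21 arrays and in the reference on 0. At this probe its liver level was therefore at least 2.35-fold over the reference in control and at least 2.22-fold in TiO2 livers at day 1. At day 28 these bounds were 2.11-fold and 2.01-fold. The raw liver signal of this probe was only 85 to 251. A dimmer second probe of Steap4 was above background in liver on 9 of 21 arrays, and stood at 0.36 in the day 1 controls. The bounds thus hold for 1 probe and not for both. One Selenop spot was marked deviant on 1 array, so its day 28 control mean of 6.60 ± 0.08 rests on 3 mice.

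In the alpha-2-macroglobulin family of wide-range protease inhibitors the members differed by gene. Mug1 stood at 8.10 ± 0.31 and Pzp at 6.71 ± 0.61 in the day 1 controls. A2m itself was well above background in the liver on 1 of 21 arrays at its brighter probe and on 0 at the other, so no fold is given for it. Mug1 has close relatives in the mouse genome, and whether its probe also bound their transcripts was not tested. A2m and Mug1 are neighbours in the RefSeq gene order.

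The growth factor, hormone and peptide precursors ranged widely. In the day 1 controls Agt (angiotensinogen) stood at 6.07 ± 0.20, Leap2 (the ghrelin receptor antagonist LEAP2) at 5.65 ± 0.97, Lect2 (a hepatokine) at 5.48 ± 0.46, Hgfac (the protease that activates hepatocyte growth factor) at 5.42 ± 0.33 and Mst1 (macrophage-stimulating protein) at 4.72 ± 0.39. Serpinf1 (pigment epithelium-derived factor) stood at 1.65 ± 0.49 and Ecm1 (extracellular matrix protein 1) at 0.02 ± 0.27, close to the cell lines. At their dimmer second probes these levels were 0.78 for Serpinf1 and 0.33 for Ecm1. Leap2 was above background in the reference on 4 of 21 arrays and on 0 in the day 28 controls, where its liver level was at least 27.6-fold higher. These bounds set the liver mean against the dimmest probe signal well above background, or the reference's own signal where that is higher, on each array.

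The members varied more between mice of the same group than most genes did. The median SD within groups was 0.44 over the tested members, from 0.17 for Cp to 1.14 for Leap2, against 0.23 over all tested features. The scan day went with much of this spread. Of the variation of a member over the arrays, a median of 72.9% lay between scan days. The groups, entered after the scan day, added a median of 4.71%, so variation shared by both counts for the scan day. The scan day share was above 50% for 23 of 31 members (74.2%). Among the features with a value on every array the median share was 35.8%, and it was above 50% for 32.8%.

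On each of the 6 arrays of scan day 1 the median level of the members lay between 4.65 and 5.08, and on the other arrays between 5.50 and 6.08. From scan day 1 to scan day 3 the mean was higher for 26 members and lower for 5, namely Afp, Cp, Ecm1, Serpinf1 and Steap4. Azgp1 had the largest scan day share, 95%, with means of 6.56, 7.45 and 7.73 on the 3 days. Leap2 had means of 3.56, 5.79 and 5.53. Since scan day 1 held 4 of the 12 TiO2 and 2 of the 9 control arrays, the differences below were also fitted with the scan day as a block.

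**Figure D2:**
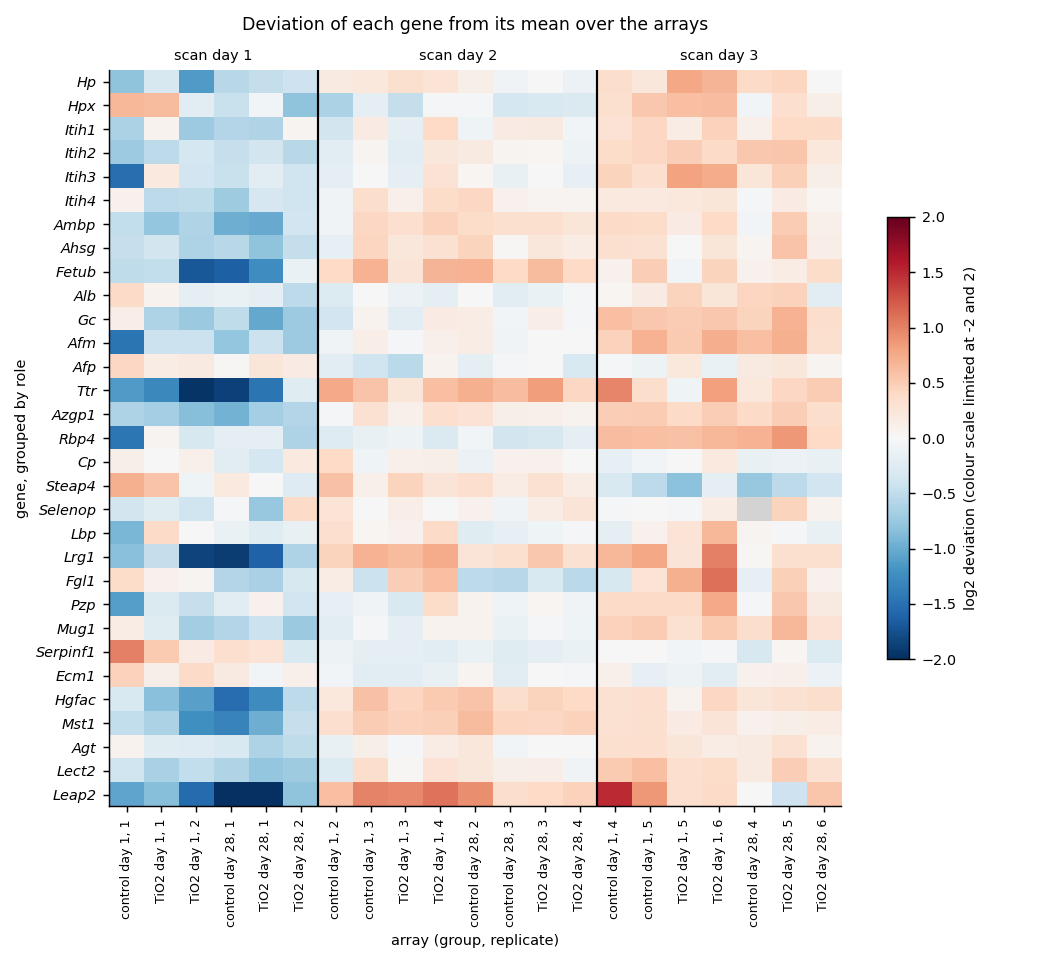
Log2 deviation of each of the 31 tested members (vertical axis, grouped by role) from its own mean over the arrays, with the 21 arrays (horizontal axis) ordered by scan day; red is above and blue below the mean, and grey is a missing spot. Most members are below their mean on the 6 arrays of scan day 1, where the array medians were 4.65 to 5.08, and Serpinf1 is above it on 5 of these.

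Levels of the members were also set against each other from mouse to mouse. Over the 30 members with a value on every array, 435 pairs could be formed, and the median correlation of levels over the 21 arrays was 0.445. Once group and scan day means had been taken out the median was 0.171, with 29 pairs above 0.7 and 0 below -0.7. The highest were Fetub with Lrg1 (0.923), Gc with Agt (0.905), Fetub with Mst1 (0.903), Hpx with Mug1 (0.884) and Rbp4 with Afm (0.863). These correlations describe points that share an array and its normalization, and pairs of other features were not computed. Lbp, Itih3, Rbp4, Afm, Pzp, Cp and Serpinf1 had medians below 0 with the other members, from -0.20 for Rbp4 to -0.01 for Pzp, while Itih3 paired best with Afm (0.804).

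At day 1, 0 of the 31 members differed between TiO2 and control livers at an adjusted p under 0.05 (limma, Benjamini-Hochberg over all features), where 0 of 17624 features (0%) did. Of the members, 12 were higher and 19 lower, with a median difference of -0.08, beside 47.7% of all features higher and a median of -0.01. This split was 14 to 17 with the scan day as a block, 5 to 26 with median centring in place of loess and 17 to 14 in the liver channel alone. At an unadjusted p under 0.05 stood 2 members, Lbp and Fgl1, both higher in TiO2 livers, where 1.72% of all features did, 0.987% of them higher. The 95% interval of the difference lay within 1 log2 unit either way for 24 members, and reached past it for Fetub, Hgfac, Itih3, Leap2, Lrg1, Mst1 and Ttr.

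**Figure D3:**
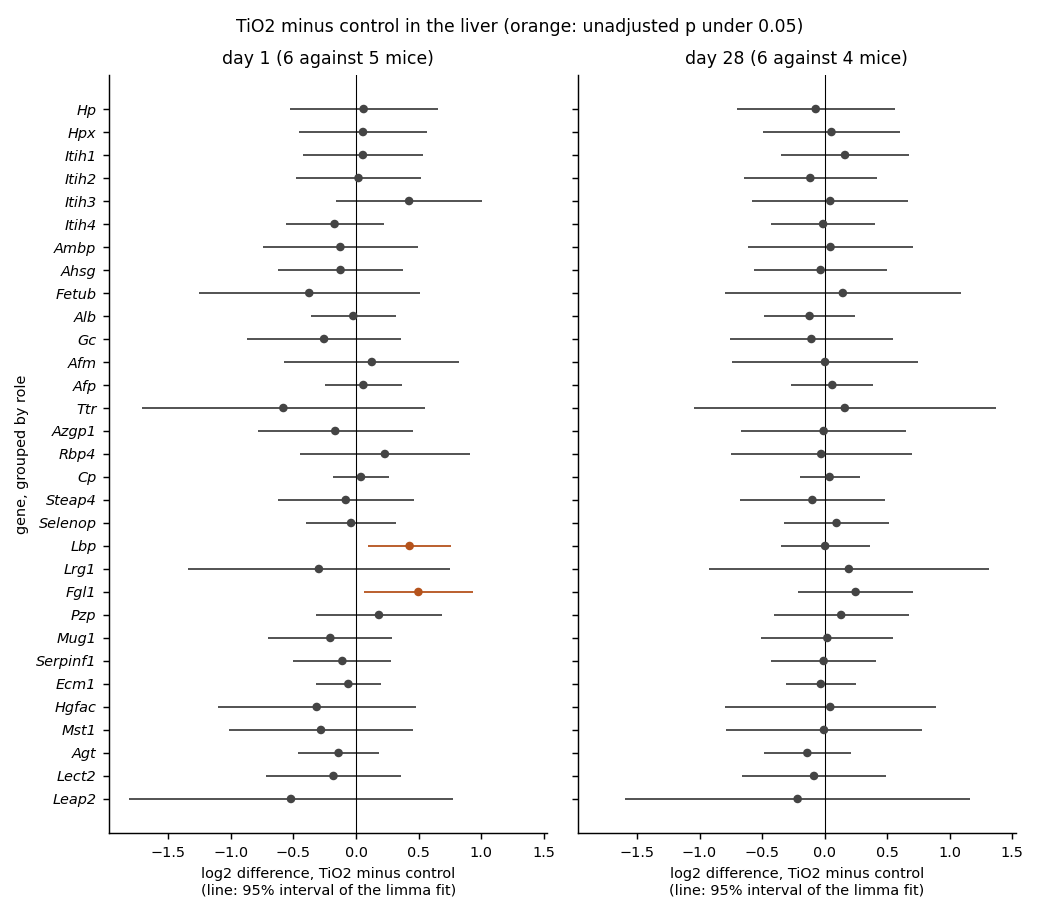
Difference of the mean log2 level between TiO2 and control livers (horizontal axis, log2) for the 31 tested members grouped by role, at day 1 and at day 28; lines are 95% intervals of limma and orange marks an unadjusted p under 0.05. At day 1 the intervals of Lbp (0.10 to 0.76) and Fgl1 (0.07 to 0.93) lie above 0, and at day 28 every interval includes 0.

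Lbp encodes the lipopolysaccharide-binding protein, which hands bacterial lipid to CD14. Its values were 1.25, 2.50, 2.21, 1.97 and 2.25 in the day 1 controls and ran from 2.18 over a median of 2.49 to 2.82 in the day 1 TiO2 mice. Of the 6 TiO2 mice 3 lay above every control and the groups overlapped, and control replicate 1, the control of scan day 1, lay far below the others. The difference was 0.43 ± 0.16, or 1.35-fold (limma, unadjusted p = 0.0142, adjusted p = 1), and each of the 6 TiO2 values exceeded the mean of the controls. Between these groups 0 of 31 members were without overlap, and 0.108% of all features. With the scan day as a block it was 0.47 ± 0.14 (adjusted p = 0.993 in limma). Within scan days it was 1.11, 0.05 and 0.52, and without control replicate 1 it was 0.23.

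Fgl1 encodes a fibrinogen-like protein that hepatocytes secrete and that interleukin-6 induces. Its values were 6.80, 6.59, 6.00, 6.11 and 6.71 in the day 1 controls and ran from 6.49 over a median of 6.98 to 7.52 in the day 1 TiO2 mice. The lower TiO2 mice, on scan day 1, lay among the controls and the other 4 above all of them. The difference was 0.50 ± 0.21, or 1.41-fold (limma, unadjusted p = 0.0259, adjusted p = 1), and 0.54 ± 0.17 with the scan day as a block (adjusted p = 0.993). It was -0.30 within scan day 1, 0.69 within scan day 2 and 0.92 within scan day 3. The log ratios of the scanner software gave -0.03, on a reference that was above background on 17 of 21 arrays.

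Itih3 stood higher in TiO2 livers by 0.42 ± 0.28 (limma, unadjusted p = 0.146), and by 0.52 ± 0.17 with the scan day as a block (unadjusted p = 0.00502, adjusted p = 0.993). Its values were 6.55, 7.85, 8.05, 8.50 and 8.39 in the day 1 controls and 7.66 to 8.85, with a median of 8.29, in the TiO2 mice. The groups overlapped, and the low control was again replicate 1. Within scan days the difference was 1.40, 0.15 and 0.38, and without that replicate it was 0.10. With the block, 3 members were at an unadjusted p under 0.05, all higher, beside 4.08% of all features, and 0 were called.

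**Figure D4:**
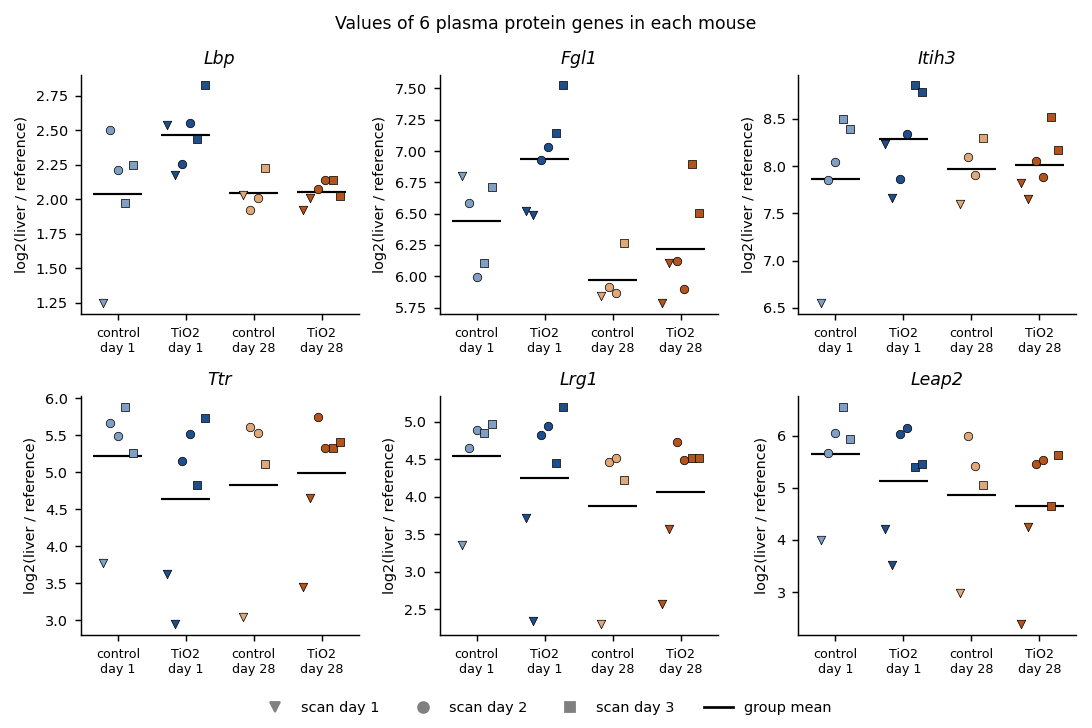
Log2 ratio of liver to reference (vertical axis) of Lbp, Fgl1, Itih3, Ttr, Lrg1 and Leap2 in each of the 21 mice by group (horizontal axis); black lines are group means and the marker shape gives the scan day. For Ttr, Lrg1 and Leap2 the triangles of scan day 1 lie at the bottom of each group, and for Lbp the 6 TiO2 mice at day 1 lie above the 6 at day 28.

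Of the 9 members known as positive acute phase genes 6 were higher and 3 lower at day 1, with a median difference of 0.06, and of the 9 negative ones 2 were higher and 7 lower, with a median of -0.12, beside the 47.7% of all features that were higher. The 14 tested hepatocyte markers outside the member list were 2 higher and 12 lower, with a median of -0.18. The difference between the positive and negative lists was not tested. Their medians were 0.06 and -0.03 with the scan day as a block and -0.07 and -0.27 with median centring, and without scan day 1 they were 0.18 and 0.01. Lrg1, a leucine-rich glycoprotein of the acute phase, stood at 4.25 ± 1.07 in TiO2 and 4.54 ± 0.67 in control livers. Its difference of -0.30 ± 0.50 became 0.08 without TiO2 replicate 2 and -0.07 with the scan day as a block. Ttr stood lower by 0.58 ± 0.55 in TiO2 livers, by 0.24 without TiO2 replicate 2, by 0.94 without control replicate 1 and by 0.34 with the scan day as a block.

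The 7 precursor members were all lower in TiO2 livers at day 1, with a median difference of -0.18. Of all features 47.7% were higher, and 0 of the 7 precursors were at an unadjusted p under 0.05. The count lower was 6 with the scanner software's log ratios, under which Leap2 stood higher by 0.33, 6 with array weights and 5 on arrays that passed the scanner's quality check. The direction was not particular to the precursors. Of the hepatocyte markers outside the member list 12 of 14 were lower, with a median of -0.18, and 10 of 14 with the scan day as a block, with a median of -0.09. Leap2 stood lower by 0.52 ± 0.62, with a 95% interval from -1.82 to 0.78. Its values were 4.01, 5.67, 6.06, 6.56 and 5.94 in the controls and ran from 3.53 over a median of 5.43 to 6.14 in the TiO2 mice. The groups overlapped over nearly their whole range. With the scan day as a block the difference was -0.25 ± 0.26.

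At day 28, 0 of 31 members were called between TiO2 and control livers (0% of features) and 0 were at an unadjusted p under 0.05, against 0.919% of features. Of the members 16 were higher and 15 lower, with a median difference of 0.00, where 50.8% of all features were higher. This split was 19 to 12 with the scan day as a block, 8 to 23 with the scanner software's log ratios, 1 to 30 with median centring and 24 to 7 with scaling between arrays. At an unadjusted p under 0.05 stood 0 members also with the scan day as a block, against 3.09% of features. Groups did not overlap for 0 of 31 members and 0.289% of features. Lbp had values of 2.03, 1.92, 2.01 and 2.23 in controls and ran from 1.92 over a median of 2.05 to 2.14 in TiO2 mice. The groups lay on each other, with a difference of 0.00 ± 0.17 and a 95% interval from -0.35 to 0.36. Fgl1 had values of 5.84, 5.91, 5.87 and 6.26 in controls and ran from 5.78 over a median of 6.11 to 6.90 in TiO2 mice, a difference of 0.25 ± 0.22 that was -0.35 with the scanner software's log ratios. The 95% interval lay within 1 log2 unit either way for 27 members, all but Fetub, Leap2, Lrg1 and Ttr.

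The change of the TiO2 effect from day 1 to day 28 was tested by the interaction. It was called for 0 of 31 members (0% of features), and 0 were at an unadjusted p under 0.05, against 0.738% of features. The effect was higher at day 28 for 20 members and lower for 11, with a median of 0.09, where it was higher for 50.9% of all features, and with the block it was higher for 19 and lower for 12. For Lbp the effect was smaller at day 28 by 0.42 ± 0.23 (limma, unadjusted p = 0.0841, adjusted p = 1), and for Fgl1 by 0.25 ± 0.30 (unadjusted p = 0.419). So for Lbp and Fgl1 the data do not show that the effects at the 2 days differed. With the scan day as a block the interaction for Lbp was -0.44 ± 0.20 (unadjusted p = 0.0413) and for Ttr 0.67 ± 0.31 (unadjusted p = 0.04), with 2.97% of features at this level, and both had an adjusted p of 0.999 in limma.

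Between the TiO2 groups, day 28 against day 1, 0 of 31 members were called, where 6 of 17624 features (0.034%) were. This comparison shares the day 1 TiO2 mice with the day 1 comparison, so it is no separate sighting of their levels. Fgl1 stood lower at day 28 by 0.72 ± 0.20, 0.607-fold (limma, unadjusted p = 0.00158, adjusted p = 0.579), and the difference was negative within each scan day, -0.56, -0.97 and -0.63. With the scan day as a block its adjusted p was 0.0929. The fall of Fgl1 was smaller with the scanner software's log ratios. Lbp stood lower by 0.41 ± 0.15 (unadjusted p = 0.0133, adjusted p = 1), and it was the only member whose 2 TiO2 groups did not overlap, at 1.92 to 2.14 against 2.18 to 2.82. Groups did not overlap for 0.357% of all features. The members at an unadjusted p under 0.05 were these 2 of 31, both lower, beside 3.76% of features in either direction and 1.61% lower. The block on scan day left Lbp and Fgl1 as the 2 members at this level, both lower, beside 8.72% of features, and 0 of 31 were called where 19 features (0.108%) were. Of the members 8 were higher and 23 lower at day 28, with a median difference of -0.05, where 51.2% of all features were higher. Either TiO2 group had 2 arrays on each scan day, so the block could not change these member differences, only their SE.

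Between the control groups, day 28 against day 1 after vehicle instillation, 0 of 31 members were called (0% of features). At an unadjusted p under 0.05 stood 0, against 3.01% of features. Age and time since the instillation were not separated in this comparison. Of the members 9 were higher and 22 lower, with a median difference of -0.14, beside 48.6% of all features higher, and with the block 10 were higher and 21 lower. The 14 tested hepatocyte markers outside the member list were 1 higher and 13 lower, with a median of -0.19, and 4 higher and 10 lower with the block. Fgl1 stood lower by 0.47 ± 0.23 in controls (limma, unadjusted p = 0.0549, adjusted p = 1). It stood lower by 0.41 with the block, and the scanner software's log ratios gave 0.00. Leap2 stood lower by 0.78 ± 0.69 and Lrg1 by 0.67 ± 0.56, and without control day 28 replicate 1 these differences were -0.15 and -0.14. For Leap2 the scanner software's log ratios gave 0.35. With the scan day as a block 3 members, Lrg1, Leap2 and Fgl1, were at an unadjusted p under 0.05, all lower, beside 7.76% of features. The 2 control groups did not overlap for 0 of 31 members and 0.692% of features.

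The mean TiO2 effect over both days was called for 0 of 31 members (0% of features). Fgl1 stood higher by 0.37, by 0.38 with the scan day as a block and lower, at -0.19, with the scanner software's log ratios. It was at an unadjusted p under 0.05, the 1 member at that level, which 1.69% of features reached, 0.732% higher. Of the members 11 were higher and 20 lower, with a median of -0.05, where 48.7% of all features were higher. The block turned this split to 21 higher and 10 lower, with a median of 0.01, where 8450 of 17624 features were higher, and median centring gave 3 higher and 28 lower. Given the scan day as a block, 3 members, Lbp, Fgl1 and Itih3, stood at this level, all higher, beside 4.31% of features, and 0 were called. These are whole livers, in which fewer cells of a type and less RNA per cell cannot be told apart.

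Other acute phase genes, from a list of 18, had some larger differences. At day 1, 15 were higher and 3 lower in TiO2 livers, with a median difference of 0.28, beside 47.7% of all features higher. At an unadjusted p under 0.05 stood 5, all higher, beside 0.987% of features that were higher at this level. The block on scan day made this 7, all higher, beside 4.08% of features in either direction. In either fit 0 of 18 were called, and 0% of features. With the scanner software's log ratios 9 were higher and 9 lower, with a median of 0.04. Lcn2, which encodes the iron-siderophore binder lipocalin-2, stood higher by 1.48 ± 0.27 (limma, adjusted p = 0.285), and the serum amyloid genes Saa3 by 2.41 ± 0.50 (adjusted p = 0.752) and Saa1 by 1.77 ± 0.39 (adjusted p = 1). Orm3, an orosomucoid gene, stood higher by 0.83 ± 0.29 and Apcs, serum amyloid P, by 0.39 ± 0.17. Between the TiO2 groups Lcn2 fell by 1.77 ± 0.25 from day 1 to day 28 (adjusted p = 0.00614 in limma). It was the 1 gene of the 18 that passed, beside 0.034% of all features. The SD of Lcn2 was 0.85 in TiO2 livers at day 1 and 0.09 at day 28. Saa3 and Saa1 also spread most in the day 1 TiO2 mice, with SDs of 1.46 and 1.03. The fit pools the spread of all groups, so its SEs do not show this. With the scan day as a block 3 passed, Lcn2 (adjusted p = 0.00341), Saa1 (adjusted p = 0.0122) and Saa3 (adjusted p = 0.0159 in limma), beside 0.108% of all features. The differences of Lbp and Fgl1 at day 1, 0.43 and 0.50, were thus smaller in size than those of Lcn2, Saa3, Saa1 and Orm3 in the same livers. They were larger than that of Apcs, 0.39, and than the median of the 18 genes, 0.28.

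Regulators, transcription factors and receptors linked to the members gave mostly small differences. Of all features 47.7% were higher at day 1 and 0% were called. At an unadjusted p under 0.05 stood 1.72% of them, and 4.08% with the scan day as a block. Of 17 regulators of acute phase transcription 15 were tested and 0 called at day 1, with 5 higher, 10 lower and a median difference of -0.01. Cebpb, the C/EBP beta gene, stood higher by 0.72 ± 0.29 (limma, unadjusted p = 0.0205, adjusted p = 1). In controls it stood higher at day 28 than at day 1 by 0.91 ± 0.32 (limma, unadjusted p = 0.00965, adjusted p = 1). Both differences share the day 1 controls, which stood at -0.23 ± 0.86. The TiO2 livers stood at 0.49 ± 0.35 at day 1 and 0.83 ± 0.29 at day 28, and the day 28 controls at 0.68 ± 0.44. Of 18 hepatocyte transcription factor genes 17 were tested, of which 2 were higher and 15 lower at day 1 with a median difference of -0.14, and 0 were at an unadjusted p under 0.05, or 1, Foxa1, with the scan day as a block (limma, unadjusted p = 0.0435, adjusted p = 0.993). Foxa1 stood lower by 0.22 ± 0.12 and Onecut1 by 0.32 ± 0.24. Of 32 receptor and partner genes of the members 22 were tested, 12 higher and 10 lower with a median of 0.01, and 0 were called. Cd14, the receptor partner of the lipopolysaccharide-binding protein, stood higher at day 1 by 0.43 ± 0.17 (unadjusted p = 0.0189, adjusted p = 1), from -2.46 ± 0.34 in controls to -2.03 ± 0.27.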

How the data were processed

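Liver RNA of 21 mice was measured on arrays with 2 colours, 1 mouse per array. The intensity values used are the median spot and local background signals that the authors deposited from the scanner, not normalized per the file headers. Another deposited column, LogRatio, is log10 of red over green after the scanner software's own correction and was used as an alternative. The authors' deposited value table holds log2 values of unstated scale, centring and direction. It correlated at 0.9956 to 0.9972 per array with ratios of red over green computed here without background correction, its column medians were -0.06 to -0.01, and its direction was taken from that match. The file headers name Feature Extraction 10.7.3.1 and the submitters' processing notes 9.5.3.1. No colours were swapped, so a dye effect of a probe adds to its level and cancels in differences between groups.

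Background was corrected by normexp (offset 50) in limma 3.58.1 under R 4.3.3, with the signals of spots marked deviant replaced for that step, followed by loess within arrays. Symbols came from RefSeq accessions. The model held the 4 group means over all arrays, with Benjamini-Hochberg adjustment over 17624 features and a threshold of 0.05. Of these features 214 lacked a value on at least 1 array. Tested on simulated data for the day 1 comparison over 17410 features, the fit called 88% of genes changed by 1 log2 unit and 99% of those changed by 2. It also called 11 unchanged features. The changed genes were drawn at random from all features, and the simulated spread was independent between arrays, with no scan days. The median SD within groups was 0.44 over the members and 0.23 over all features. What share of the members the fit would call was therefore not tested. The number of liver probes above background was 12978 to 26618 per array, and 0 spots were saturated, so leaving out saturated spots was not run separately. The number of arrays limits the precision.

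The members, gene lists and tests were chosen with earlier results of these data known. All 32 members are reported, and of the other lists the genes at an unadjusted p under 0.05 or otherwise the 2 with the smallest p, of which the text gives those at day 1 and examples at other times. Promoters came from RefSeq (GRCm38.p6), the first window by position where a gene had several. Coordinates of other features are not given because the array headers name build mm8. The labels call the mice biological replicates, and their replicate numbers follow the order of deposition. Planned arrays were 22, of which 21 were analysed here.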

Additional observations from a re-analysis of the deposited data

Results flagged for a closer look

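Within groups of 4 to 6 mice, 9 of 127 groups of values tested held a mouse far from the others by Dixon's test (7.09%), where chance gives about 1 in 20. Of the 9, 4 were of control day 1 replicate 1 and 3 of control day 28 replicate 1, both on scan day 1. In control day 1 replicate 1, Hp stood at 5.67 beside 6.65 to 6.83 in the other controls, Lrg1 at 3.36 beside 4.65 to 4.97, and Mst1 at 4.04 beside 4.83 to 5.03. Serpinf1 stood high there, at 2.51 beside 1.31 to 1.52. In control day 28 replicate 1, Lrg1 stood at 2.30 beside 4.22 to 4.52, Hgfac at 3.65 beside 5.42 to 5.76, and Lect2 at 4.71 beside 5.44 to 5.54. Fgl1 was high in control day 28 replicate 4, at 6.26 beside 5.84 to 5.91, and Selenop low in TiO2 day 28 replicate 1, at 5.85 beside 6.68 to 7.05. The part of the scan day in these values was not tested.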

How the results depend on the processing

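Under all 41 or 42 alternatives with a test, 0 members were called in each of the 6 comparisons, and the smallest adjusted p of a member was 0.0889 (limma, Fgl1, TiO2 day 28 against day 1, slide as a random block). No paired analysis was possible because the labels pair no mice and the replicate numbers are only names given in accession order. The median difference of the members changed sign with the setting, from -0.23 to 0.07 at day 1, -0.26 to 0.10 at day 28, -0.12 to 0.23 for the interaction, -0.50 to 0.05 for time in controls, -0.46 to 0.03 between the TiO2 groups and -0.28 to 0.04 for the mean effect. The difference kept its sign in every setting for 3 of 31 members at day 1 and for 0 at day 28.

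The count of features called moved from 0 at day 1 to 3 with the slide as a random block, and to 1 with array weights or on arrays that passed the scanner software's quality check. For time in controls it moved from 0 to 4 with array weights and 7 on the arrays that passed. Between the TiO2 groups it moved from 6 to 3 with offset 10 or normexp on all spots, 1 with the scanner software's log ratios, 0 with median centring, 2 with scaling between arrays, 19 with the scan day as a block, 31 with the slide as a random block, 14 with array weights and 1 on the arrays that passed. It was 1 without scan day 1 and 0 without scan day 2 or 3. For the mean effect it was 1 with the scanner software's log ratios. Leaving out each mouse in turn gave 0 to 3 features at day 1, 0 to 1 for time in controls, 5 to 9 between the TiO2 groups and 0 to 1 for the mean effect. The 3 at day 1 came without TiO2 day 1 replicate 2.

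The median level of the members in control livers at day 1, 5.65, was 6.84 with the scanner software's log ratios and 4.99 with median centring, and 25 to 29 members were at least 4-fold over the reference across the alternatives. Normexp on all spots gave values that correlated with the others at 0.677 on control day 28 replicate 4, 0.901 on TiO2 day 28 replicate 3 and 0.906 on TiO2 day 28 replicate 5. In the whole windows of 300 bases the HNF1 core was found in 7 of 26 members (26.9%, against 0.858% of all). Scaling between arrays and the choice of arrays by quality were added after the data were seen, as was the treatment of deviant spots. Steap4, Leap2, Ttr and Fgl1 rest on a reference near or below background, which limits their ratios. The liver signals of Afp and Steap4 were dim, which limits theirs as well.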
